A study of Mus musculus with 3 samples.

Results

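The 10 genes described here, Tcf4, Runx2, Bcl11a, Spib, Irf8, Irf4, Batf3, Id2, Zeb2 and Zbtb46, encode transcription regulators of dendritic cells. They were taken by symbol from the 31053 genes of the count matrix, and all 10 had a row. The data are droplet single-cell RNA profiles (10x Genomics 3' chemistry, version 3) of flow-sorted mouse liver non-parenchymal cells, which is the liver without most of its hepatocytes. The mice were Ai14 (LSL-Tomato) mice, which carry a red fluorescent reporter that Cre switches on. They received 20a-LNP or 20mix-LNP, lipid nanoparticles loaded with Cre mRNA at 0.3 mg/kg, or PBS, and cells were taken 3 h later. Each of the 3 treatments has 1 library. The barcodes of the libraries end in 1, 2 or 3, and no label or file used here ties an ending to a treatment. Values are therefore given over all cells and for libraries 1, 2 and 3 by that ending, and no effect of a treatment is reported. How many mice went into a library is not stated in the labels.

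Dendritic cells sense microbes and activate T cells. Plasmacytoid dendritic cells secrete type I interferon, type 1 conventional dendritic cells (cDC1) present antigen of dead cells to CD8+ T cells, and type 2 conventional dendritic cells (cDC2) mainly prime CD4+ T cells. These fates are set by a network of regulators: the E protein Tcf4 drives the plasmacytoid fate and its inhibitor Id2 the conventional fates, Irf8 with Batf3 drives cDC1, and Irf4 acts in cDC2. Zeb2 is known to repress Id2, and Zbtb46 marks the conventional lineage.

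Of 4638 barcodes, 3207 cells were kept. A class is the set of cells that passed a gate of at least 2 marker genes and at least 3 unique molecular identifiers (UMIs, counted RNA molecules) of its 6-gene list, none of them a member. Plasmacytoid dendritic cells (pDCs, gated on Siglech, Ccr9, Klk1, Cox6a2, Pacsin1 and Dntt) numbered 55, 74 and 62 in libraries 1, 2 and 3, together 191. The cDC1 gate held 21, 41 and 26 cells (88 in all), the cDC2 gate 9, 35 and 14 (58), and the gate for mature, Ccr7-expressing dendritic cells 6, 16 and 12 (34). Classical monocytes were 14, 12 and 9 cells (35) and nonclassical monocytes 35, 56 and 42 (133). The 9 cDC2s of library 1 and the 9 classical monocytes of library 3 lie 1 below the minimum of 10 set for a comparison per library. The 6 mature dendritic cells of library 1 lie below it too. Ratios of these classes in those libraries are weak. Another 449 cells passed several gates and were left out, 203 of them through the pDC gate. Levels are a gene's UMIs over all UMIs of the class, scaled to CPM. Since reads come from transcript 3' ends, levels are compared between classes and not between genes. Intervals are 95% and exact, and they cover counting error only, not variation between mice, libraries or cells.

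Marker sums describe the gates and do not test them, since the same genes defined the classes. The cDC2 marker Cd209d was lower in its own gate, at 50.2 CPM, than in all other kept cells, at 133 CPM. In pDCs the 6 plasmacytoid markers summed to 8312 CPM, and in cDC1 and cDC2 to 35.9 and 37.3 CPM. In the pDC gate, however, the classical monocyte list summed to 1074 CPM and the cDC2 list to 768 CPM, through 2 and 4 of 6 genes. Conversely, 19 of 88 cDC1s, 8 of 58 cDC2s and 5 of 35 classical monocytes carried at least 1 UMI of a plasmacytoid marker, and values without those cells are given where they matter. In cDC1s Tcf4 was at 90.7 CPM in the cells with such a UMI and 62.7 CPM in the others. Barcodes are shared between libraries in 3 cases (6 cells).

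Promoter sequences are shown for members whose window holds a match to an E-box, the kind of site E proteins bind, or to a RUNX site, because Tcf4, Id2 and Runx2 are themselves members. The windows run from 250 bases before to 50 after the start, from RefSeq on GRCm38.p6, 5' to 3' on the gene's strand. Of the 10 members, 9 had an entry, with 13 windows. Searched on both strands were the E-boxes CACCTG and CAGCTG, the RUNX site TGTGGT, the ETS core GAGGAA, the ETS and IRF composite element and the interferon response element. Capitals mark E-box and RUNX matches.
Runx2 (chr17:44814578-44814877, minus strand): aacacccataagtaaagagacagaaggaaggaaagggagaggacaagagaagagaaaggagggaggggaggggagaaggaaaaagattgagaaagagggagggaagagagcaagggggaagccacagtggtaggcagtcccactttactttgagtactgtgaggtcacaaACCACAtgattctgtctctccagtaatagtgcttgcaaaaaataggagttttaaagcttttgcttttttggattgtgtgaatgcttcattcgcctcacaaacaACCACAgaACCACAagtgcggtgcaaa
Id2 (chr12:25096043-25096342, minus strand): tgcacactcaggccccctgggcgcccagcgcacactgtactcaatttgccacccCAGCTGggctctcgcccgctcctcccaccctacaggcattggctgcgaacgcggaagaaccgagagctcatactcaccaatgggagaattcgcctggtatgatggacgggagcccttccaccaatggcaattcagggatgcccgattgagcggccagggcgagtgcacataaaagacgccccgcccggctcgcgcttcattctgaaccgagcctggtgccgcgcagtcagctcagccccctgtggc
Irf8, second window (chr8:120738389-120738688, plus strand): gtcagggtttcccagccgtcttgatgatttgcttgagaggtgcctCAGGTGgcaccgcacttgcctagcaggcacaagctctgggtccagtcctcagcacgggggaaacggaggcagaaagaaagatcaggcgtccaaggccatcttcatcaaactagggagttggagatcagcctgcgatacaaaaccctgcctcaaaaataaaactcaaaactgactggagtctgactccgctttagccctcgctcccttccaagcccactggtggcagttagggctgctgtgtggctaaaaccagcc
Zbtb46 (chr2:181424339-181424638, minus strand): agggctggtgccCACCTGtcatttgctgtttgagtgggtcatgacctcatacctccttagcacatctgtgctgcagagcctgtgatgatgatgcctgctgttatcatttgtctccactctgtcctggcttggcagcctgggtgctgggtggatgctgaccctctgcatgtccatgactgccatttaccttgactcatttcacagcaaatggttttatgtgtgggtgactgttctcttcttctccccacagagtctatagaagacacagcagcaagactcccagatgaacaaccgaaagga

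The Runx2 window held 3 RUNX matches, written on the other strand as ACCACA. Of all 32544 distinct promoter windows, 16.7% hold at least 1. The Id2 window held 1 CAGCTG, found in 16.4% of all windows, and the Zbtb46 window and the second Irf8 window held 1 CACCTG each, found in 20.3%. The ETS core, in 28.1% of all windows, occurred in the Irf4, Batf3 and all 4 Zeb2 windows and is not marked. No window of a member held the composite or the interferon element, which 2.73% and 3.45% of all windows hold. The Id2 window, the second Irf8 window and the Zbtb46 window lie inside the annotated genes (GENCODE M21 on GRCm38, chr12:25093799-25097140, chr8:120736358-120756694 and chr2:181387762-181459426). A letter match is a description of the window and shows no binding.

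The plasmacytoid regulators Tcf4, Runx2, Bcl11a and Spib stood highest in pDCs of all 13 classes described. Tcf4, the E protein that specifies pDCs, was at 2353, 2745 and 2463 CPM in pDCs of libraries 1, 2 and 3, against 39.5, 173 and 211 CPM in cDC2s and 55.3, 73.4 and 81.3 CPM in cDC1s. In each library the pDC level was above both others. Single cells could overlap, since 1 cDC2 of library 2 held 26 Tcf4 UMIs. Over all cells pDCs had 2528 CPM, 15.9 times the cDC2 level of 159 CPM (interval 13.2 to 19.3) and 35.7 times the cDC1 level of 70.9 CPM (28.7 to 44.9). Against cDC2s the ratio was 8.69 under the stricter gate (3 markers and 6 UMIs), and against cDC1s 16.9 under a gate without markers that pDCs share, chosen after the data were seen. The stricter gate held 259 pDCs, 76 cDC1s, 42 cDC2s and 25 classical monocytes. Its pDCs are more than the 191 of the main gate and are not a subset of them. All 191 pDCs carried a Tcf4 UMI, 22 in the median cell. With each cell thinned to 2000 UMIs, 98.9% of pDCs kept one, against 17.4% of cDC1s, 18.2% of cDC2s and none of 76 T cells.

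Outside the dendritic classes Tcf4 was next highest in liver sinusoidal endothelial cells, the fenestrated lining of the sinusoids, at 1032, 1166 and 1071 CPM. The pDC level was 2.35 times the pooled endothelial one (2.26 to 2.45). B cells, which also use E proteins, followed at 251 CPM and Kupffer cells, the resident macrophages, at 110 CPM. Classical monocytes were at 334 CPM, but 82 of their 119 Tcf4 UMIs came from the 5 cells with a plasmacytoid marker UMI, and the other 30 cells were at 131 CPM. In cDC2s, likewise, 26 of 111 UMIs lay in 1 cell, and the 50 cells with no plasmacytoid marker UMI were at 120 CPM.

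Runx2, a runt factor known in mice for the exit of pDCs from bone marrow, was at 747, 806 and 749 CPM in pDCs, against 7.89, 78.7 and 47.6 CPM in cDC2s and 10.4, 18.4 and 14.1 CPM in cDC1s. The pDC level was 13.4 times that of cDC2s (9.78 to 18.8) and 50.01 times that of cDC1s (31.5 to 84.6). Against cDC2s the ratio was 23.6 without library 2 and 6.46 under the stricter gate, and against cDC1s 16.05 under the gate without shared markers. In cDC2s 18 of the 40 UMIs belonged to 1 cell. Nonclassical monocytes, the patrolling monocytes of the vessel wall, came second at 139.5, 151 and 108 CPM. They exceeded classical monocytes 3.68 times (2.06 to 7.13), and in each library. Of the 13 UMIs of classical monocytes, 12 lay in the 9 cells with no UMI of Chil3, F13a1, Fn1 or Vcan. The other 26 classical monocytes held 1 UMI, at 3.98 CPM. B cells held 1 Runx2 UMI, so among the plasmacytoid regulators Runx2 was not shared with them.

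Bcl11a, a zinc finger repressor required for pDC and B cell development, was at 635, 743 and 640 CPM in pDCs, against 158, 210 and 217 CPM in cDC2s and 58.8, 91.8 and 70.7 CPM in cDC1s. The pDC over cDC2 ratio of 3.33 (2.80 to 4.0) was the second lowest of the 6 members higher in pDCs. B cells stood next to pDCs at 276 CPM, and their level and that of cDC2s differed by less than the counting interval. No UMI was seen in 194 Kupffer cells, and 2 UMIs in 34 mature dendritic cells.

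Spib, an Ets factor that works with Tcf4 in pDCs, was at 505, 332 and 539 CPM in pDCs. In cDC2s it was at 0, 10.5 and 26.4 CPM, and in cDC1s there was no UMI in any library. The pDC level of 456 CPM was 35.3 times the cDC2 level (18.5 to 77.5). With the cDC1 count set to 3, it was 178 times the cDC1 level, and the exact interval starts at 144. Without library 2 the cDC1 ratio set in this way was 99.7. Against cDC2s the ratio was 212 under the gate without shared markers, where cDC2s held 1 UMI. Library 2 was the lowest of the 3 in pDCs and lay below the intervals of the other two. B cells followed at 148 CPM and mature dendritic cells at 65.4 CPM, where 9 of 19 UMIs came from 1 cell. In mature dendritic cells Spib was 5.07 times the cDC2 level (2.18 to 12.7). It was above cDC2s in each library, but on few UMIs: 5, 3 and 11 against 0, 4 and 5. Library 1 had 6 and 9 cells of the 2 classes.

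**Figure D1:**
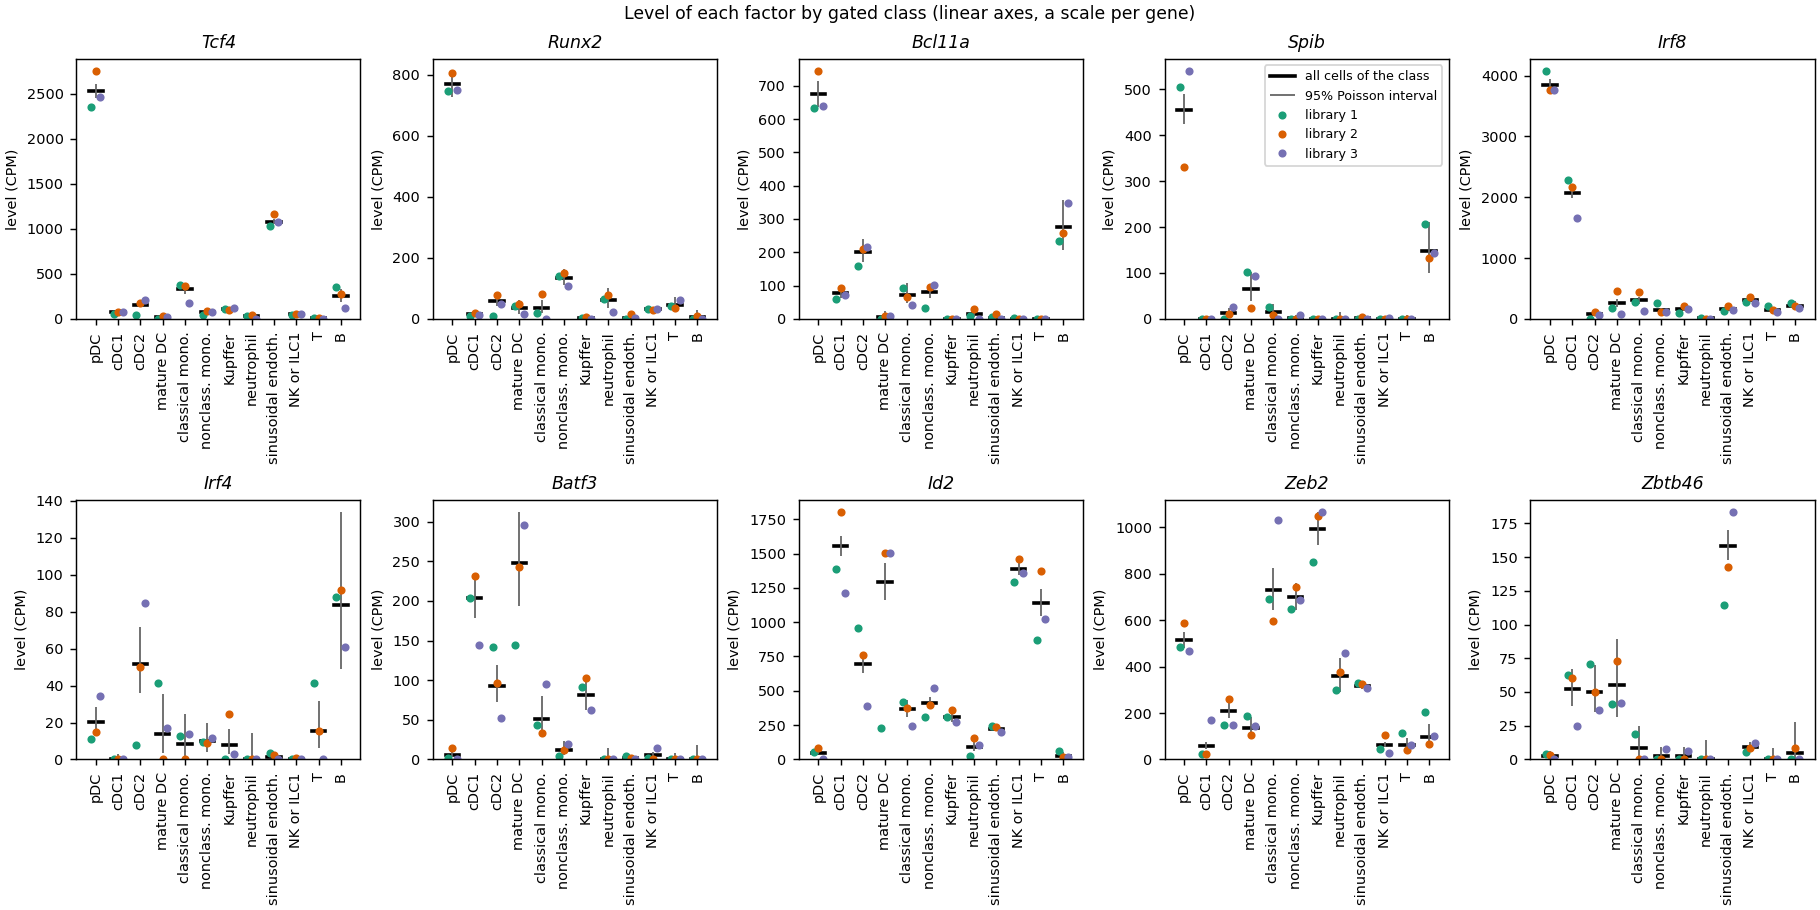
Level of each of the 10 members (CPM, linear axis starting at 0, a scale per gene) in 12 gated classes. Bars are all cells of a class with 95% Poisson intervals, and points are libraries 1, 2 and 3. Tcf4, Runx2, Bcl11a and Spib stand highest in pDCs, Irf8 in pDCs and cDC1s, Id2 in cDC1s, mature dendritic, NK or ILC1 and T cells, Zeb2 in Kupffer cells and monocytes, and Zbtb46 in sinusoidal endothelium.

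The interferon regulatory factors Irf8 and Irf4 went in opposite directions between cDC1s and cDC2s. Both were higher in pDCs than in cDC1s. Irf8 was at 4068, 3755 and 3755 CPM in pDCs and at 2276, 2169 and 1665 CPM in cDC1s, against 0, 105 and 58.1 CPM in cDC2s. The cDC1 level was 28.3 times that of cDC2s (21.5 to 38.2) and the pDC level 52.7 times (39.998 to 70.8). Without library 2 these ratios were 56.7 and 112, and under the stricter gate 13.5 and 23.8. All 88 cDC1s and 189 of 191 pDCs held an Irf8 UMI. In cDC2s 11 of 58 cells did, and 20 of the 51 UMIs came from 1 cell. The 50 cDC2s without a plasmacytoid marker UMI had 42.4 CPM. Between pDCs and cDC1s the ratio was 1.86 (1.77 to 1.95), at 1.79, 1.73 and 2.26 in libraries 1, 2 and 3, and 2.52 with cells thinned to 1000 UMIs. The cDC2 level was the lowest of all described classes except neutrophils.

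Irf8 overlaps a readthrough gene, Gm20388, on the same strand at its 3' end. That gene had no UMI in any kept cell, and how reads shared by both were counted was not tested. Further from the dendritic cells, Irf8 in NK or ILC1 cells was at 307 CPM and in classical monocytes at 303 CPM. Of the 108 UMIs of these monocytes, 54 lay in the 9 cells with no UMI of Chil3, F13a1, Fn1 or Vcan. The other 26 were at 215 CPM. Mature dendritic cells had 258 CPM, of which 34 of 75 UMIs came from 1 cell. With that cell and 1 other with a plasmacytoid marker UMI left out, the class was at 155 CPM.

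Irf4, which supports cDC2s and antibody-producing B lineage cells, was at 7.89, 49.8 and 84.6 CPM in cDC2s, and no UMI was seen in the 88 cDC1s. With the cDC1 count set to 3, the cDC1 level was 20.2 times lower than that of cDC2s, and the exact interval starts at 15.6. In pDCs Irf4 was at 11.3, 14.9 and 34.1 CPM, 2.54 times lower than in cDC2s over all cells (1.55 to 4.17), but not in library 1, where cDC2s held 1 UMI. The call ended under the stricter gate, with a ratio of 0.735, and under the single-class gate, with 0.569. B cells at 83.7 CPM and cDC2s at 51.6 CPM could not be told apart by their intervals. In single cells thinned to 2000 UMIs no cDC2 held both factors: 5 of 55 held Irf8 and 7 held Irf4. With so few positive cells the absence of overlap is not informative, and only 12.7% of cDC2s kept an Irf4 UMI at that depth.

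Batf3, the AP-1 factor that sustains Irf8 in cDC1s, was highest in mature dendritic cells at 144, 243 and 295 CPM and in cDC1s at 204, 232 and 145 CPM. These classes overlapped, with a ratio of 1.21 (0.92 to 1.59). In cDC2s it was at 142, 97.0 and 52.9 CPM, and cDC1s were 2.19 times higher (1.66 to 2.93), in each library. Kupffer cells, at 81.8 CPM, lay within the interval of cDC2s. In pDCs there were 10 UMIs, 9 of them in 1 cell of library 2, so 2 of 191 cells were positive. The pDC level was 35.1 times lower than in cDC1s (18.8 to 74.2) and 16.1 times lower than in cDC2s (8.19 to 35.04), with that cell included. Without library 2 the ratios were 0.00511 against cDC1s and 0.0101 against cDC2s. The cDC1 over cDC2 ratio was 1.97 without library 2.

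Id2, which binds E proteins such as Tcf4 and keeps them off DNA, ran opposite to Tcf4 among the dendritic classes. It was at 52.6, 86.3 and 1.71 CPM in pDCs, against 955, 758 and 386 CPM in cDC2s and 1384, 1802 and 1209 CPM in cDC1s. The pDC level was 14.7 times lower than in cDC2s (11.6 to 18.9) and 33.1 times lower than in cDC1s (26.5 to 41.8). Within pDCs the libraries differed beyond counting error, since library 3 held 1 UMI in 62 cells. The signal lay in few cells: 22 of 191 pDCs carried all 81 UMIs, and 3 of them held at least 50% of these. Without library 2 the pDC over cDC2 ratio was 0.0422 and the pDC over cDC1 ratio 0.0200. Between the conventional classes, cDC1s were 2.25 times higher than cDC2s (2.03 to 2.49), in each library, and 1.99 times under the single-class gate. After cDC1s, at 1556 CPM, came NK or ILC1 cells at 1388 CPM, mature dendritic cells at 1291 CPM and T cells at 1140 CPM. B cells, at 24.6 CPM, could not be told apart from pDCs by counting.

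Thinned to 2000 UMIs, 96.3% of 187 pDCs held Tcf4 without Id2, 2.67% held both and 0.535% Id2 alone. In cDC1s the order was turned, with 2.33% Tcf4 alone, 15.1% both and 61.6% Id2 alone. In cDC2s 9.09% held Tcf4 alone, 9.09% both and 41.8% Id2 alone. Of sinusoidal endothelial cells, 61.3% held Tcf4 alone and 22.2% both. Unthinned, 11.5% of pDCs held an Id2 UMI, next to 8.51% of B cells. Median depth was 10078 UMIs in pDCs and 4367 in B cells.

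**Figure D2:**
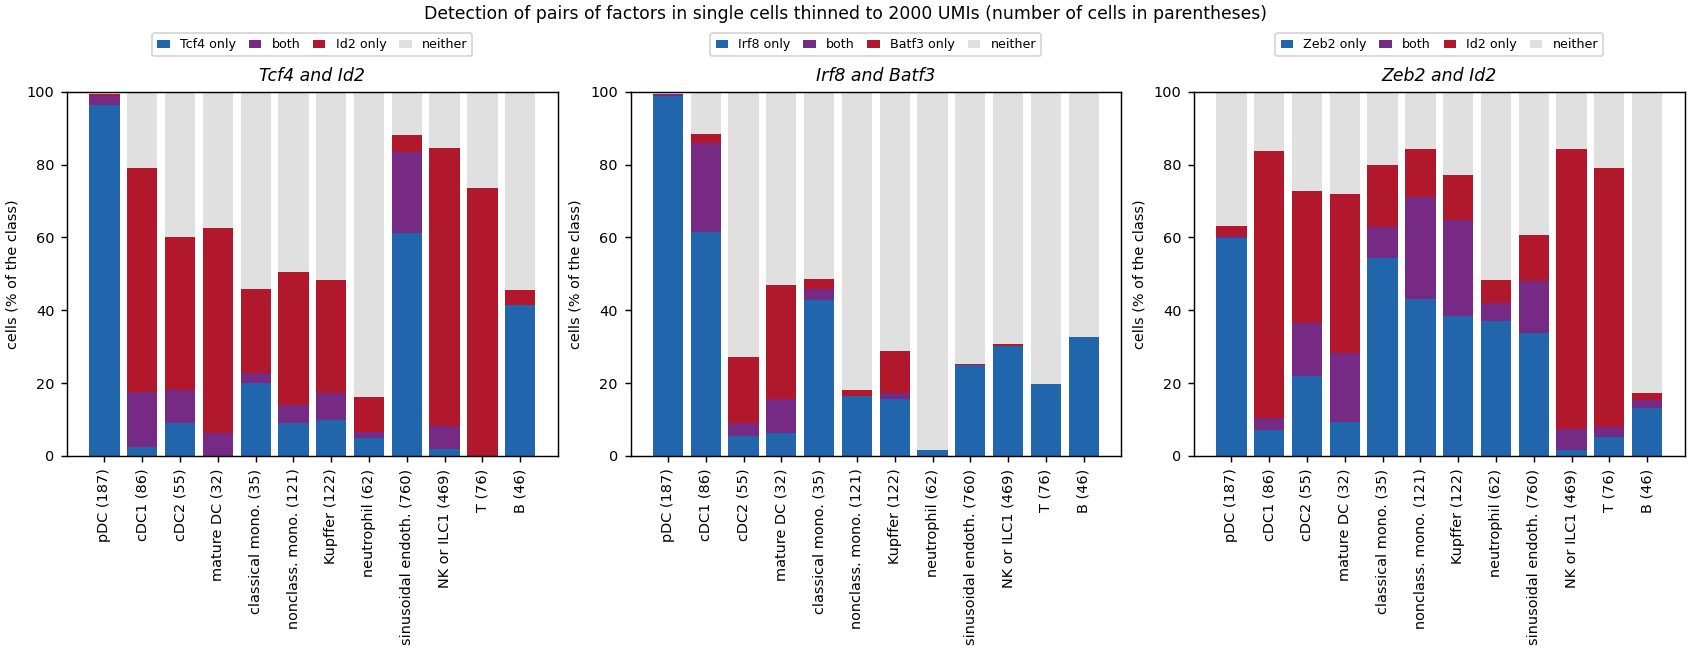
Share of cells (% of the class, each cell thinned to 2000 UMIs, number of cells in parentheses) that hold the first factor alone, both, the second alone or neither, for Tcf4 and Id2, Irf8 and Batf3, and Zeb2 and Id2. In pDCs 96.3% of cells hold Tcf4 without Id2, and in cDC1s 61.6% hold Id2 without Tcf4.

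Zeb2, a zinc finger repressor that favours pDCs and monocytes over cDC1s, was at 483, 586 and 469 CPM in pDCs, against 150, 260 and 148 CPM in cDC2s and 24.2, 23.4 and 170 CPM in cDC1s. The pDC level was 2.45 times that of cDC2s (2.06 to 2.94) and 8.73 times that of cDC1s (6.83 to 11.3). Under the stricter gate (3 markers and 6 UMIs) the ratios were 1.96, under the 2-fold limit, and 71.6. Library 3 stood apart in cDC1s: 9 of 26 cells there carried 48 of the 69 UMIs, against 3 of 21 cells in library 1 and 3 of 41 in library 2. The pDC over cDC1 ratio was 19.9, 25.1 and 2.76 by library, and the cDC1 over cDC2 ratio 0.161, 0.0900 and 1.15. Without library 3 the pDC over cDC1 ratio was 22.7, and without library 2 it was 4.95. Zeb2 was highest in Kupffer cells, at 994 CPM, 1.93 times the pDC level (1.75 to 2.13). Classical monocytes as gated, at 730 CPM, and nonclassical monocytes, at 700 CPM, did not differ beyond counting error. The 26 classical monocytes with a UMI of Chil3, F13a1, Fn1 or Vcan were at 835 CPM (726 to 956). The 9 others were at 478 CPM.

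Zbtb46, the zinc finger factor that marks conventional dendritic cells, was at 62.3, 60.1 and 24.7 CPM in cDC1s and at 71.1, 49.8 and 37.0 CPM in cDC2s. The 2 classes did not separate, with a ratio of 1.04 (0.674 to 1.62), and mature dendritic cells had 55.1 CPM. In pDCs 4 UMIs were seen in 191 cells, 22.4 times lower than in cDC1s (8.32 to 84.9) and 21.6 times lower than in cDC2s (7.73 to 83.7). Classical monocytes held 3 UMIs, all in the cells with a plasmacytoid marker UMI. The highest level was in sinusoidal endothelial cells, at 114.5, 143 and 183 CPM, 3.04 times that of cDC1s (2.34 to 4.02) and 3.16 times that of cDC2s (2.25 to 4.56). In endothelium 46.2% of cells carried a UMI, against none of the 91 T cells, at a similar median depth of 5604 and 5303 UMIs.

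Counted by a fixed rule (a ratio of 2 or more, or 0.5 or less, with at least 20 UMIs over both classes), 6 members were higher and 4 lower in pDCs than in cDC2s. Of all 8150 genes counted in that contrast, 22.1% were higher and 10.0% lower. The 6 higher members were Tcf4, Runx2, Bcl11a, Spib, Irf8 and Zeb2, each in all 3 libraries, and the lower ones Irf4, Batf3, Id2 and Zbtb46, of which Irf4 held in 2 libraries. Of all genes counted, 20.5% were higher and 8.80% lower in this way in all 3 libraries. Against cDC1s, 6 members were higher in pDCs and 3 lower, beside 23.2% and 10.3% of 8469 genes, all of them in each library, beside 21.7% and 9.33% of genes. Irf4 replaced Irf8 among the higher ones. The members are known regulators of these cells, so their counts describe the members and are not a test of them.

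**Figure D3:**
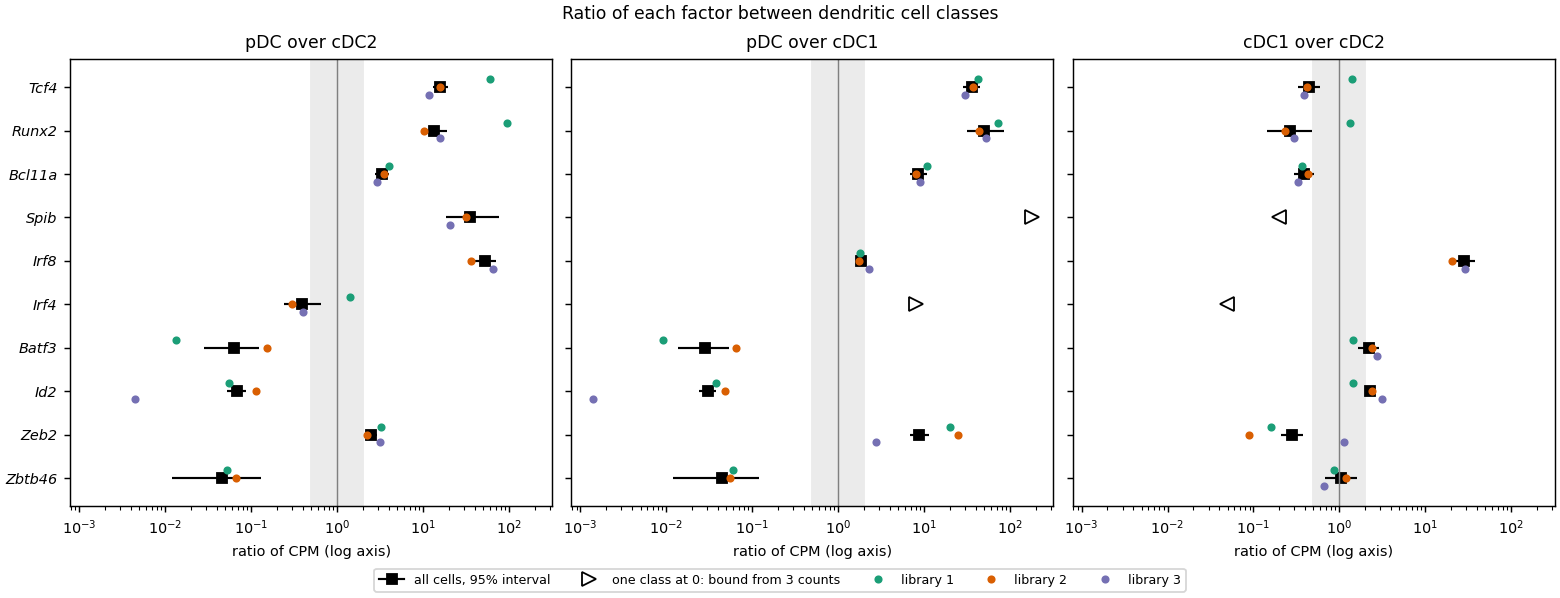
Ratio of CPM (log axis) for the 10 members in pDCs over cDC2s, pDCs over cDC1s and cDC1s over cDC2s. Squares are all cells with 95% intervals, and points are libraries 1, 2 and 3 where both counts are above 0. Open triangles mark a class at 0, and the grey band spans 0.5 to 2. Irf8 lies at 52.7, 1.86 and 28.3 in the 3 panels.

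In cDC1s over cDC2s, 3 members were higher (Irf8, Batf3 and Id2, in all 3 libraries) and 5 lower, beside 6.56% and 9.08% of 7056 genes. The shares of genes that were so in all 3 libraries were 5.43% and 6.89%. Of the lower ones, Bcl11a at 0.388 (0.295 to 0.509) and Irf4 held in each library. Tcf4 at 0.445, Runx2 at 0.268 and Zeb2 at 0.281 held in 2. Without library 2, which has 35 of the 58 cDC2s, 2 members were lower, and Zeb2 was at 0.646. Under the gate without shared markers Tcf4 was at 0.958, Runx2 at 0.695 and Bcl11a at 0.505, all above 0.5, and Batf3 and Id2 were under 2. Zbtb46 was in neither group, and Spib had too few UMIs to count.

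In pDCs over classical monocytes, 6 members were higher and 2 lower, beside 23.6% and 10.2% of 7851 genes. In all 3 libraries it was 5 and 2 members, beside 21.3% and 8.66% of genes. Irf4 was higher in 2 libraries only, at a ratio of 2.41 whose interval includes 1 (0.761 to 12.3). Its 3 UMIs in monocytes lay in the 9 cells with no UMI of Chil3, F13a1, Fn1 or Vcan. The lower ones were Id2, at 47.1 against 368 CPM, and Batf3, at 5.81 against 50.5 CPM. Zeb2 was at 514 CPM in pDCs and 730 CPM in monocytes, a ratio of 0.704 (0.613 to 0.812). In cDC2s over classical monocytes, 3 members were higher and 3 lower, beside 8.01% and 7.55% of 5605 genes. In all 3 libraries it was 2 and 2 members, beside 6.42% and 6.07% of genes. Bcl11a was 2.77 times higher (1.81 to 4.39), Irf4 6.13 times (1.94 to 31.1, in 2 libraries) and Zbtb46 5.96 times (1.88 to 30.3). The monocytes held 3 UMIs each of the last pair. Irf8 was 4.15 times lower in cDC2s (2.94 to 5.90) and Zeb2 3.49 times lower (2.84 to 4.30), both in each library. Under the stricter gate the ratio was 1.75 for Bcl11a and 0.533 for Irf8, which ended both calls. For Tcf4 the ratio was 0.476 (0.365 to 0.622), but 2.22 when the monocytes were restricted to the 26 with a UMI of Chil3, F13a1, Fn1 or Vcan, a restriction chosen after the data were seen. In those 26 cells Tcf4 was at 71.6 CPM, Bcl11a at 19.9 CPM and Zbtb46 at 0.

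Related regulators from fixed lists, chosen like the members with earlier results of these data known, were counted by the same rule. Of 6 E protein and Id genes counted in pDCs over cDC2s, 2 were higher and 3 lower, Tcf4 and Id2 among them, where all genes gave 22.1% and 10.0%. The list's median log2 ratio was -0.82, against 0.25 over all genes counted. Tcf12, another E protein, was at 250 CPM in pDCs, against 41.6 CPM in cDC2s and 33.3 CPM in cDC1s, 6.0 and 7.50 times higher. The inhibitor Id3 was at 102 CPM in pDCs, against 535 CPM in cDC2s and 289 CPM in cDC1s, and Id1 at 1.74, 41.6 and 22.2 CPM in the same order. Id3 and Id1 thus lay on the side of Id2, and Tcf12 on that of Tcf4, in all 3 libraries.

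In the Ets list 2 of 6 genes were higher and 2 lower in pDCs than in cDC2s, beside 22.1% and 10.0% of all genes, with a median log2 ratio of -0.17. Ets1, a lymphoid Ets factor, was at 191 CPM in pDCs, against 1.43 CPM in cDC2s and 2.56 CPM in cDC1s. Spi1, which encodes the myeloid factor PU.1, was at 49.96 CPM in pDCs, against 561 CPM in cDC2s and 402 CPM in cDC1s. It was 11.2 times lower than in cDC2s (8.87 to 14.3), opposite to its relative Spib. Runx1 was 2.87 times lower in pDCs than in cDC2s (2.15 to 3.83), opposite to Runx2, and Runx3 was 2.99 times higher in cDC2s than in classical monocytes.

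Among 8 interferon regulatory factors counted, 3 were higher and 2 lower in pDCs than in cDC2s, beside 22.1% and 10.0% of all genes. The list's median log2 ratio of 0.34 lay near that of all genes, 0.25. Irf7, the factor that drives interferon transcription in pDCs, was at 192 CPM in pDCs and 90.4 CPM in cDC2s, and Irf5 at 98.8 and 245 CPM. In the AP-1 list none was higher and 3 of 6 were lower, Batf3 among them, beside 22.1% and 10.0% of all genes. The list's median log2 ratio was -1.86, against 0.25 over all genes. Junb was at 157 CPM in pDCs, against 1231 CPM in cDC2s and 362 CPM in cDC1s, and Fosl2 at 1.16, 57.4 and 16.2 CPM. Against cDC1s the list went both ways. Jun was at 921 CPM in pDCs and 262 CPM in cDC1s, and Jund at 566 and 278 CPM. Of 7 zinc finger regulators, Klf4 was 14.4 times lower in pDCs than in cDC2s (9.48 to 22.8) and 3.04 times lower in cDC1s than in cDC2s (2.31 to 4.02).

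In the list of 12 other regulators, 1 of 11 counted was higher and 5 lower in pDCs than in cDC2s, beside 22.1% and 10.0% of all genes, with a median log2 ratio of -0.94. Mycl was at 66.2 CPM in pDCs and 114 CPM in cDC1s, against 14.3 CPM in cDC2s. Rbpj, which carries Notch signals, was 4.29 times lower in pDCs than in cDC2s and 4.87 times lower than in cDC1s. All 6 monocyte and macrophage regulators were lower in pDCs than in classical monocytes, beside 10.2% of 7851 genes. Cebpb was at 38.9 and 972 CPM and Maf at 8.13 and 171 CPM. The list's median log2 ratio was -4.52, against 0.24 over all genes counted. In cDC2s 4 of these 6 were lower than in classical monocytes, beside 7.55% of 5605 genes, with Cebpb at 91.8 and 972 CPM. Of 8 genes of nucleic acid sensing and secretion, 6 were higher and 1 lower in pDCs than in cDC2s, beside 22.1% and 10.0% of all genes. Pld4 was at 1076 and 295 CPM. Among the 6 are Irf7, counted above with the interferon regulatory factors, and Pacsin1, a marker of the pDC gate, whose call the gate fixed.

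Conventional NK cells and ILC1s, the circulating and resident innate lymphocytes of liver, differed in several members. Zeb2, needed for terminal NK maturation, was at 294, 356 and 261 CPM in 63 conventional NK cells, against 3.77, 12.5 and 11.4 CPM in 395 ILC1s, 33.0 times higher (21.3 to 53.6). Irf8 was at 1002, 912 and 291.5 CPM in NK cells, against 151, 150.1 and 209 CPM in ILC1s, 4.90 times higher (4.26 to 5.63). Library 3, with 8 NK cells, was the lowest in Irf8. Tcf4 was 2.01 times higher in NK cells (1.37 to 2.92), at 84.5 and 41.9 CPM. Id2 was at 931 CPM in NK cells and 1491 CPM in ILC1s, with the NK cells higher in library 3.

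For each member genes were taken from the 3 with the most similar level over the 13 classes (Pearson r of log2 of CPM plus 1, 6763 candidate genes). The points are classes of the same libraries, and the r is a description of likeness. Tcf4 was followed most closely by Selenot (r 0.915), Lifr (0.895) and Zcchc24 (0.887). Lifr was highest in sinusoidal endothelial cells, at 1443 CPM, and Selenot in pDCs, at 174 CPM. Bcl11a went with Rnase6 (0.921), Kmo (0.902) and Siglecg (0.862), Spib with Chst3 (0.831), Siglecg (0.829) and Ly6d (0.818), and Runx2 with Pqlc3 (0.890) and Spn (0.805), a nonclassical monocyte gate marker. Batf3 had Lamtor1 (0.946), Shtn1 (0.938) and Coro1b (0.934). Id2 had Sulf2 (0.889) and Asb2 (0.846).

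Zeb2 was nearest to Frrs1 (0.858), Sirpa (0.849) and Ccl2 (0.819), and Zbtb46 to Arhgef40 (0.853), Gpr4 (0.819) and Adam23 (0.813). Irf8 had Rpl31 (0.838), Creld2 (0.834) and Orai3 (0.825). Irf4 had weaker matches, Ccr6 (0.762), Spib (0.709) and Vav2 (0.692), and Spib was the only member that appeared in another member's 3.

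The pDC levels moved with the mitochondrial share of a cell. Median mitochondrial share was 7.0% in pDCs, 2.87% in cDC1s and 3.07% in cDC2s. To set this apart from the mitochondrial UMIs themselves, levels were taken over non-mitochondrial UMIs. Among barcodes assigned to the pDC class, Tcf4 was at 2067, 2211 and 6089 CPM in bins of up to 5%, 5% to 10% and 10% to 20%. These bins held 16, 114 and 61 cells. Over the same bins the median of non-mitochondrial UMIs per cell was 11554, 10516 and 3204. Bcl11a was at 450, 559 and 1871 CPM, Runx2 at 724, 709 and 1578 CPM and Zeb2 at 450, 445 and 1243 CPM. Irf8 was at 3808, 3896 and 5917 CPM, while Spib was at 385, 540 and 325 CPM, lower in the last bin than in the middle one. The part of depth or mitochondrial share in these levels was not tested. With a mitochondrial maximum of 10%, the pDC over cDC2 ratio was 12.9 for Tcf4, 2.53 for Bcl11a and 2.03 for Zeb2, and the pDC over cDC1 ratio 32.8, 7.15 and 8.44.

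**Figure D4:**
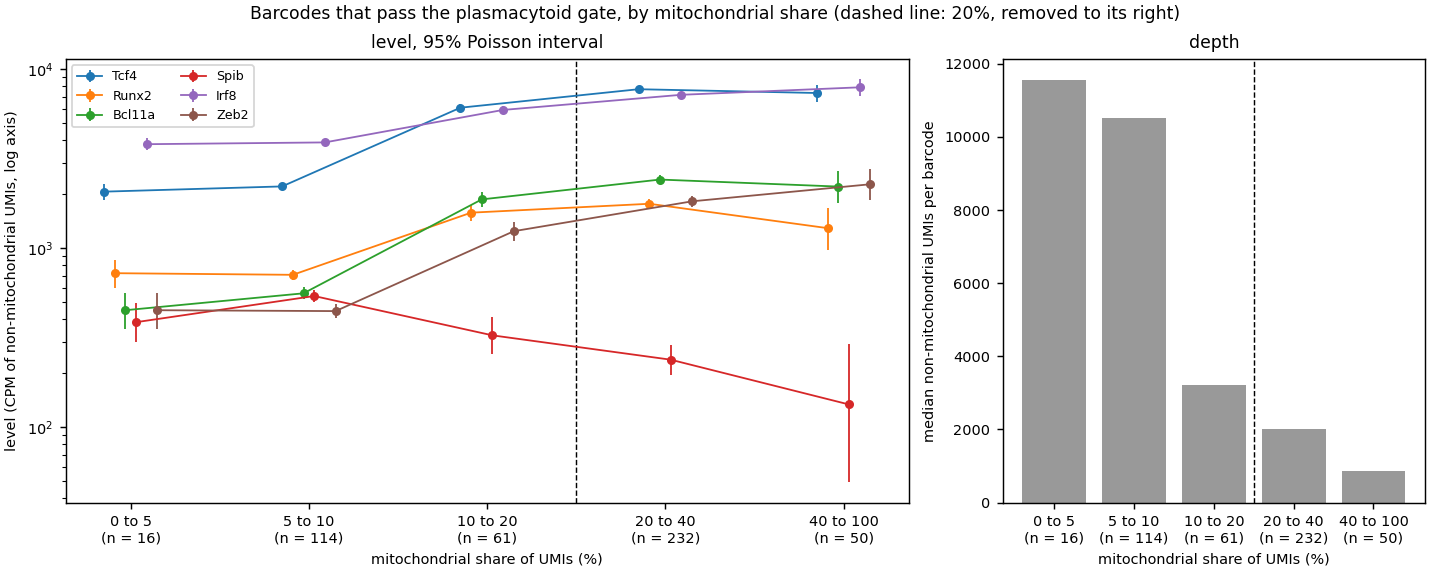
Left, level of 6 members (CPM of non-mitochondrial UMIs, log axis, 95% Poisson intervals) in barcodes assigned to the pDC class, in bins of mitochondrial share (%). Right, median non-mitochondrial UMIs per barcode. Barcodes right of the dashed line at 20% were not kept. Tcf4, Runx2, Bcl11a, Irf8 and Zeb2 are higher above 10%, where depth is lower, and Spib is not.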

How the data were processed

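Raw UMI counts of all libraries stand in a single matrix, as deposited by the authors. Its header names Cell Ranger 3.1.0, and the submitters' processing notes list mm10, STAR, Seurat and edgeR, with no versions of the tools. The matrix holds 24111183 UMIs, with 6144949, 8754827 and 9211407 in libraries 1, 2 and 3. Kept were barcodes with at least 200 genes and at most 20% mitochondrial UMIs (1408 removed), without 23 Scrublet doublets (per library, scanpy 1.11.5). That left 755, 1110 and 1342 cells with a median of 5669 UMIs.

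A cell passing several of the 14 gates (807 cells) took the class with the highest marker sum if that was at least 5 times the next (358 cells). NK and ILC1 were parted by at least 2 UMIs of one list and 3 times the other. Classes were described from 20 cells. Barcodes with hepatocyte markers (20, none in library 1) are among the 13 classes described but are not read as hepatocytes. No cell was assigned to the basophil gate. Intervals of ratios are exact and condition on a gene's UMIs in both classes; levels have exact Poisson and shares exact Clopper-Pearson intervals. With 1 library a treatment and cells that are no replicates, no test was made. For a ratio, a count of 0 was set to 3 counts, which is not the end of the exact interval.

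The treatment comparisons planned (20a-LNP and 20mix-LNP over PBS, and the 2 LNPs) were not made. The sample sheets hold index sequences and were not used. The members and lists were chosen with earlier results of these data known. Genes named beside the members are up to 4 per list by CPM among those past 2-fold in all 3 libraries, as far as a contrast is described, and the 3 most alike per member among genes at 50 CPM or more in a class. Some genes these rules name are not reported here. Positions come from GENCODE M21 (GRCm38). Alternatives were a stricter gate (3 markers, 6 UMIs), a single-class gate, a mitochondrial maximum of 10%, doublets kept, thinning to 1000 UMIs, a denominator without mitochondrial, ribosomal protein, haemoglobin and hepatocyte genes, no UMI minimum for the background share, TMM scaling (edgeR 4.0.16, R 4.3.3) and each library left out. A gate without Ly6c2, Ccr2, Clec10a and Cd209d, which pDCs carry, and the restriction of classical monocytes were added after the data were seen. The ratio calculation was tested on simulated data. Python 3.11.15, scipy 1.17.1 and numpy 2.4.6 were used.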

Additional observations from a re-analysis of the deposited data

Results flagged for a closer look

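A signal appeared in barcodes that were left out of the comparisons. With over 20% mitochondrial UMIs or under 200 genes, 282 removed barcodes were assigned to the pDC class, more than the 191 pDCs kept. Another 203 cells within the quality limits passed the pDC gate but were left out because they passed several gates. Over non-mitochondrial UMIs, Tcf4 was at 7692 CPM in the removed barcodes, against 2735 CPM in kept pDCs. Runx2 was at 1728 and 831 CPM, Bcl11a at 2397 and 730 CPM, Zeb2 at 1864 and 556 CPM and Irf8 at 7252 and 4167 CPM, removed barcodes first. Spib went the other way, at 229 CPM in removed barcodes and 493 CPM in kept pDCs. Irf4 was at 32.7 and 22.0 CPM and Id2 at 40.4 and 50.9 CPM, within counting error. The median of non-mitochondrial UMIs was 2010 in the bin of 20% to 40% and 865.5 above 40%. The part of depth and mitochondrial share in these values was not tested.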

How the results depend on the processing

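No paired analysis was possible because the treatments have 1 library each and no suffix is tied to one. Class contrasts were set side by side within each library instead, as values with no test. Counts of members higher or lower stayed within 1.5 times the reported count except as follows. Thinned to 1000 UMIs, where fewer genes reach the 20 UMIs needed, the lower members were 1 in pDCs over cDC2s, 1 in pDCs over cDC1s, 0 in cDC1s over cDC2s and 0 in pDCs over classical monocytes, and the higher ones 1 in cDC1s over cDC2s and 1 in cDC2s over classical monocytes. With each library left out, the lower members ranged from 2 to 5 in cDC1s over cDC2s and from 1 to 2 in pDCs over classical monocytes, the lowest without library 2, and the higher members in cDC2s over classical monocytes from 2 to 5, the highest without library 3. The stricter gate gave 1 lower member in pDCs over classical monocytes and 1 in cDC2s over classical monocytes. In cDC2s over classical monocytes 5 members were higher under the single-class gate, the gate without shared markers and the monocytes with a specific marker. The gate without shared markers also gave 1 higher and 2 lower in cDC1s over cDC2s and 1 lower in pDCs over classical monocytes; it held 380 pDCs, 106 cDC1s, 42 cDC2s and 12 classical monocytes. The Tcf4 ratio of cDC2s over classical monocytes (0.476) reversed to 1.64 under the stricter gate, 2.65 without shared markers and 2.22 with monocytes of a specific marker. The cause was not tested. Of 534 ratios over all settings, 390 moved by less than their interval, 141 by more and 3 reversed. Settings that could move little are in this tally. With doublets kept, all 47 ratios stayed within their interval. TMM and the reduced denominator rescale all genes of a contrast alike, and 46 of 47 stayed under each. Thinning to 1000 UMIs moved 30 of 46 ratios, and the stricter gate moved 23 of 47 and reversed 1. TMM scaling shifted the median log2 ratio of all genes by -0.14 in pDCs over cDC2s and -0.24 in pDCs over cDC1s, the gate without shared markers by -0.17 in pDCs over classical monocytes, and under TMM no count of members moved by over 1.5 times. Small classes limit depth, and for a count of 0 in cDC1s the exact interval reaches 3.15 CPM.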
